A study of Bos taurus with 9 samples.

Results

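Collagen genes were taken as every symbol of the deposited table made of COL, a number, A and a number, which gave 43 of 30641 genes. The 9 libraries hold RNA of bovine cells, epithelial cells of the endometrium by their label, cultured in a commercial bovine endometrial growth medium, in 3 groups of 3. Untreated control cells were given no reagent and no RNA. The reagent alone group received the transfection reagent jetMESSENGER 24 hours after seeding. The DPPA3 mRNA group received, at the same time, jetMESSENGER with 500 ng of in vitro transcribed mRNA of DPPA3. Per the study's design text, DPPA3 is a transcript found in vesicles from medium conditioned by bovine embryos. No group received another mRNA, so an effect of DPPA3 and one of any transfected mRNA cannot be told apart. The labels do not name a culture or animal for each replicate, so a p-value here reflects the spread between libraries, which may be technical.

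Collagens are the main structural proteins of the extracellular matrix, and 3 chains wind around each other to form each molecule. Fibrillar types such as I, III and V build the tension-bearing fibrils of connective tissue, type IV builds the sheet of the basement membrane under an epithelium, and type VI forms beaded filaments beside it. Other types bind to fibrils, anchor the basement membrane to the stroma beneath, or span the cell membrane. In the uterus most fibrillar collagen is laid down by stromal fibroblasts, while epithelial cells contribute to the basement membrane.

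Library totals ranged from 3890134 counts, in reagent alone replicate 1, to 13258036. DPPA3 itself had 0 counts in all reagent alone libraries, 0 to 2 in untreated control and 126334 to 213790 in the DPPA3 mRNA libraries. One library stood apart. In untreated control replicate 1 a single gene, LOC112442408, took 10.98% of the counts, against 3.05% to 4.36% in the other libraries, and its scaling factor was 0.856 against 1.001 to 1.05. The collagen comparisons with untreated control, and the medians of related gene lists, are therefore given with and without it. The epithelial label was checked against 16 markers. KRT8 measured 3802 to 4995 CPM (the read count scaled to library size), KRT18 1565 to 2601 CPM and KRT19 2196 to 2872 CPM. KRT7 lay between 421 and 574 CPM, CDH1 between 37.6 and 58.7 CPM and OCLN between 7.90 and 25.4 CPM. ESRP2 measured at least 7.17 CPM in every library, while MUC1 and ELF3 reached at most 3.87 and 5.48 CPM. EPCAM lay between 0 and 0.78 CPM, ESRP1 totalled 4 counts over all libraries and GRHL2 had 0. The 14 stromal markers other than collagens were all tested, with VIM at 1321 to 1725 CPM and CDH11 at 616 to 836 CPM, while THY1 reached at most 1.29 CPM. Their summed level was 2320 to 2801 CPM in untreated control, 2462 to 3047 CPM with reagent alone and 2533 to 2861 CPM with DPPA3 mRNA. Of the 16 epithelial markers 9 were tested. The list summed to 8951 to 11080 CPM, 8626 to 8962 CPM and 8817 to 9820 CPM in the same order of groups. KRT8, KRT18 and KRT19 made up most of this sum. CLDN3, CLDN4, CLDN7 and RAB25 were among the untested and reached at most 1.93 CPM. Endothelial markers summed to at most 12.7 CPM and immune markers to at most 15.5 CPM. Of 7 smooth muscle or pericyte markers 6 were tested, and the list summed to 485 to 880 CPM in untreated control, 576 to 951 CPM with reagent alone and 458 to 852 CPM with DPPA3 mRNA. ACTA2, the smooth muscle actin also made by activated fibroblasts, accounted for most of it at 355 to 802 CPM. CNN1 lay between 37.3 and 64.9 CPM, MCAM between 31.2 and 50.9 CPM and DES between 21.4 and 79.6 CPM. MYH11, ACTG2 and the untested RGS5 reached at most 2.28, 3.47 and 1.02 CPM. Libraries with more cells of a type and libraries with more RNA per cell cannot be told apart in these bulk samples.

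Collagen genes took a few percent of the counts in every library, and their total did not separate the groups. The 43 genes together took 4.67% ± 0.62 of the counts in untreated control, 4.21% ± 0.52 with reagent alone and 4.31% ± 0.29 with DPPA3 mRNA (SD, n = 3). Single libraries ranged from 3.88% to 5.34%, and the highest was untreated control replicate 1. The exact (Clopper-Pearson) 95% interval of a library's share was at most 0.038 percentage points wide and covers counting error only. COL1A1, COL1A2 and COL3A1, which encode the chains of types I and III and are marker genes of fibroblasts, took 70.1% to 72.7% of all collagen counts in each library. Fibrillar genes as a class took 84.5% to 86.3%, beaded filament genes 5.62% to 6.86%, basement membrane genes 3.09% to 3.80% and fibril-associated (FACIT) genes 2.44% to 3.57%. These are shares of reads. Longer transcripts give more reads, and levels per transcript length were not analysed here, so they do not rank the genes by number of molecules.

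Of the 43 genes, 30 had enough counts to be tested and 13 did not. The 13 totalled between 1 and 42 counts over all 9 libraries. Among them were COL2A1, the fibrillar collagen of cartilage, with 32 counts, and COL4A3, a basement membrane chain of kidney, lung and ear, with 42. COL9A1, COL19A1, COL20A1, COL21A1 and COL22A1, 5 of the 10 FACIT genes, had 4, 1, 21, 1 and 6 counts. COL13A1, COL23A1 and COL25A1, 3 of the 4 transmembrane collagens, had 13, 1 and 9 counts. COL5A3 had 3, COL26A1 27 and COL28A1 1. A count of 3 in a library, taken as the floor, was worth 0.226 to 0.747 CPM.

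**Figure D1:**
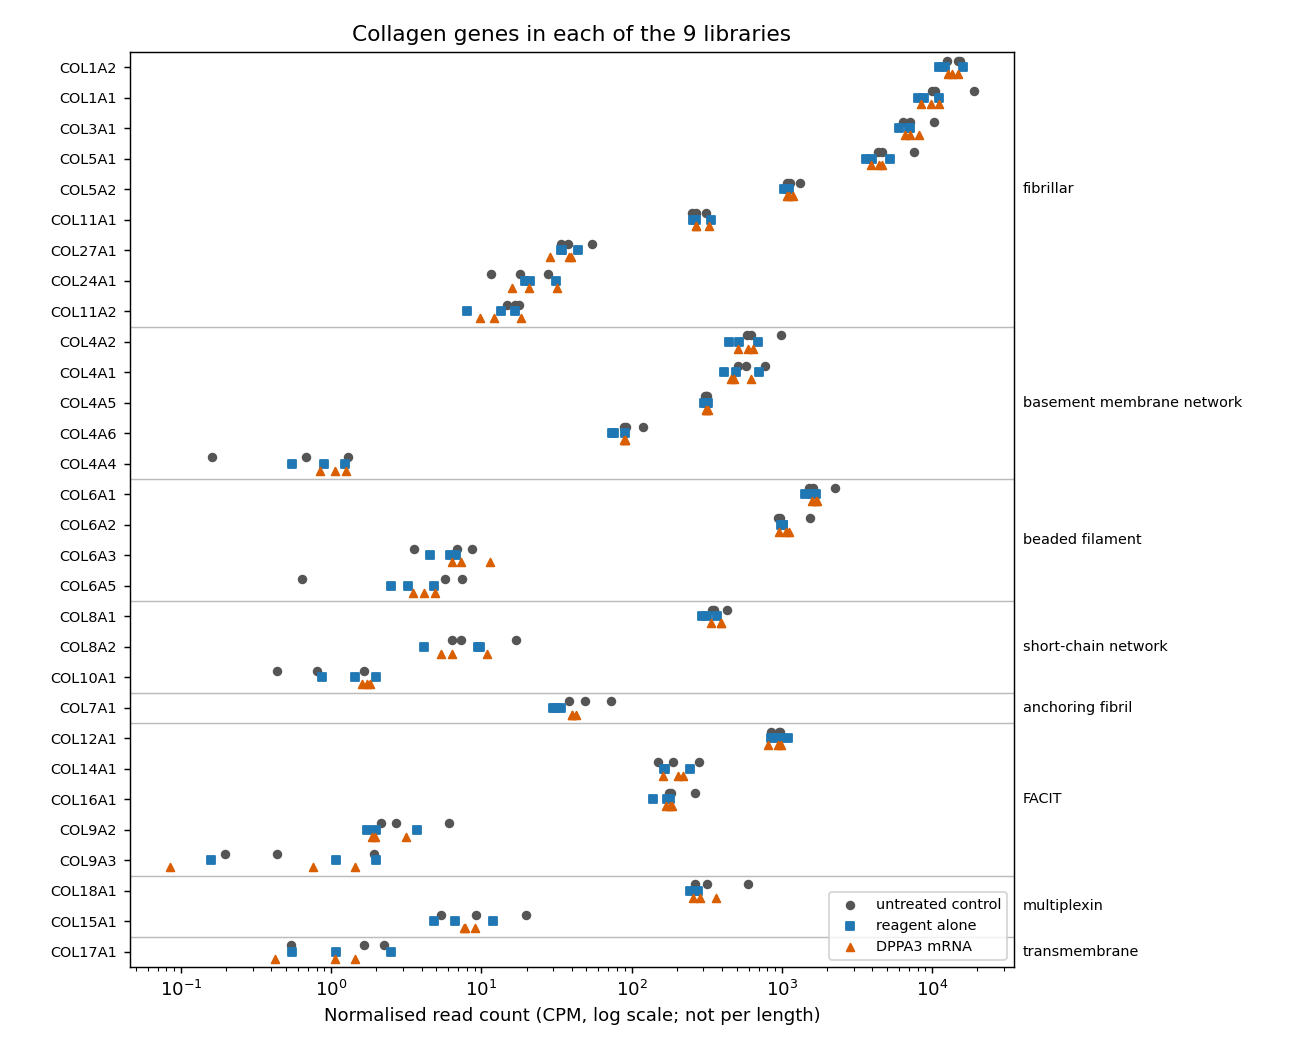
Normalised read count (CPM, logarithmic axis, not per length) of the 30 tested collagen genes, grouped by class. Each point is 1 library, with 3 libraries in each of the 3 groups, and the points of the groups overlap for all genes except COL7A1, where the 3 reagent alone libraries (29.8 to 34.0 CPM) lie below all others.

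COL1A2, the alpha 2 chain of type I collagen, measured 15350, 14733 and 12467 CPM in untreated control replicates 1 to 3. It measured 11063, 16021 and 12180 CPM in reagent alone replicates 1 to 3 and 13478, 14832 and 12710 CPM in DPPA3 mRNA replicates 1 to 3. The 3 groups overlapped, and the highest library had received reagent alone. COL1A1, the alpha 1 chain, measured 18918, 10456 and 9972 CPM in untreated control, 8778, 11045 and 8085 CPM with reagent alone and 11121, 9860 and 8433 CPM with DPPA3 mRNA. Untreated control replicate 1 lay far above the other 8 libraries, which overlapped. COL3A1, whose type III homotrimer is found in the fibrils of soft tissues, measured 10226, 7156 and 6408 CPM in untreated control, 7165, 7058 and 6031 CPM with reagent alone and 8118, 7163 and 6625 CPM with DPPA3 mRNA. Its values overlapped as well, and untreated control replicate 1 was again the highest.

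Type V collagen sits inside type I fibrils and limits their diameter. COL5A1 measured 7584, 4643 and 4376 CPM in untreated control, 3618, 5202 and 3970 CPM with reagent alone and 4394, 4612 and 3918 CPM with DPPA3 mRNA. COL5A2 was steadier, at 1327, 1083 and 1124 CPM in untreated control, 1034, 1114 and 1105 CPM with reagent alone and 1190.0, 1078 and 1106 CPM with DPPA3 mRNA. All 3 groups overlapped for both chains. COL11A1, a fibrillar chain related to type V, lay between 253 and 338 CPM in all libraries, COL27A1 between 28.8 and 54.5 CPM, COL24A1 between 11.6 and 31.6 CPM and COL11A2 between 7.97 and 18.3 CPM.

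Basement membrane collagen was represented mainly by the COL4A1 and COL4A2 pair, which form the type IV network found in nearly all basement membranes, and by COL4A5 and COL4A6. COL4A1 measured 769, 581 and 510 CPM in untreated control (mean 620 ± 134, SD, n = 3), 413, 698 and 496 CPM with reagent alone and 483, 624 and 460.2 CPM with DPPA3 mRNA. COL4A2 measured 986, 627 and 587 CPM, then 442, 692 and 522 CPM, then 508, 644 and 592 CPM in the same order of groups. In neither gene did the groups separate. COL4A5, the chain altered in X-linked Alport kidney disease, was the steadiest of the basement membrane genes, at 317, 309 and 312 CPM in untreated control, 304, 322 and 318 CPM with reagent alone and 311, 312 and 321 CPM with DPPA3 mRNA. COL4A6 measured 119.6, 88.2 and 91.9 CPM, then 74.0, 90.4 and 76.2 CPM, then 88.3, 89.9 and 90.2 CPM. Its reagent alone libraries included the 2 lowest values, but reagent alone replicate 2 exceeded untreated control replicate 2. COL4A4 was near the floor, at 0.16 to 1.30 CPM.

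The usual type VI molecule contains the products of COL6A1, COL6A2 and COL6A3. COL6A1 measured 2258, 1525 and 1614 CPM in untreated control, 1423, 1696 and 1582 CPM with reagent alone and 1718, 1693 and 1585 CPM with DPPA3 mRNA. COL6A2 measured 1538, 971 and 940.0 CPM, then 1011, 1023 and 979.5 CPM, then 1116, 1061 and 958 CPM in the same order. COL6A3, the largest of the 3 chains, measured only 6.93, 3.57 and 8.70 CPM in untreated control, 6.72, 4.58 and 6.22 CPM with reagent alone and 11.4, 6.32 and 7.30 CPM with DPPA3 mRNA. The low COL6A3 values were found in every library and in all 3 groups. COL6A5, which encodes a chain related to that of COL6A3, lay between 0.64 and 7.43 CPM, and its lowest value, 4 counts, was in untreated control replicate 1.

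Type VIII collagen forms a short-chain network and is known from endothelial and corneal basement membranes. COL8A1 measured 429, 355 and 342 CPM in untreated control, 296, 371 and 319 CPM with reagent alone and 338, 393 and 392 CPM with DPPA3 mRNA. COL8A2 measured 17.1, 6.39 and 7.33 CPM, then 9.71, 9.43 and 4.18 CPM, then 10.9, 5.42 and 6.37 CPM. Both genes overlapped between groups. COL10A1, the short-chain collagen of hypertrophic cartilage, stayed between 0.43 and 1.99 CPM.

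COL7A1 encodes the anchoring fibrils that fasten an epithelial basement membrane to the stroma. It measured 73.3, 38.4 and 49.1 CPM in untreated control, 31.1, 29.8 and 34.0 CPM with reagent alone and 42.8, 40.2 and 40.1 CPM with DPPA3 mRNA. It was the 1 tested collagen gene in which any 2 groups did not overlap. The reagent alone libraries lay below the 6 others, and the DPPA3 mRNA libraries lay within the range of untreated control. COL17A1, the transmembrane collagen of epithelial hemidesmosomes, was between 0.42 and 2.49 CPM in all libraries, close to the floor.

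Among the collagens that bind to fibrils, COL12A1 measured 971, 961 and 841 CPM in untreated control, 952, 1095 and 843 CPM with reagent alone and 947, 990.1 and 809 CPM with DPPA3 mRNA. COL16A1 measured 263, 184 and 177 CPM, then 139, 181 and 173 CPM, then 186, 179 and 169 CPM in the same order. Both overlapped between groups. COL14A1 lay between 150.3 and 281 CPM. COL9A2 and COL9A3, type IX chains typical of cartilage, reached at most 6.12 and 1.99 CPM. COL18A1, a basement membrane collagen whose end fragment is endostatin, measured 595, 264 and 319 CPM in untreated control, 278, 245 and 266 CPM with reagent alone and 364, 257 and 284 CPM with DPPA3 mRNA. Untreated control replicate 1 was again the highest library, and without it the values of all groups overlapped closely. COL15A1, the other collagen of that class, lay between 4.81 and 19.7 CPM.

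Adding the mRNA to the reagent left all tested collagen genes without a called change. At a Benjamini-Hochberg adjusted p below 0.05, edgeR's quasi-likelihood test called 0 of 30 collagen genes between DPPA3 mRNA and reagent alone. It called only 1 of all 14874 genes tested (0.00672%), so almost nothing was called outside the collagens either. DESeq2 and limma voom also called 0, and 0 members had an unadjusted edgeR p under 0.05, against 1.67% of all genes. The median log2 fold change of the 30 was 0.06, with 21 higher on average and 9 lower (49.6% of all genes were lower), and 0.0027 over all genes tested. The fold changes of the main chains were small, with intervals that reached to both sides of 0. For COL1A2 the log2 fold change was 0.06 (95% interval -0.26 to 0.39), for COL1A1 0.08 (-0.40 to 0.55) and for COL3A1 0.11 (-0.25 to 0.48). For 22 of the 30 genes the interval lay wholly within a 2-fold change in either direction, as it did for 9776 of all 14874 genes tested. The 8 others included genes near the floor such as COL9A3 (log2 fold change -0.34, SE 1.09). Their intervals were too wide for a statement about changes of that size.

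COL7A1 had the smallest p of the collagens here. With DPPA3 mRNA it averaged 41.0 ± 1.56 CPM, against 31.7 ± 2.16 CPM (SD, n = 3) for reagent alone, and all 3 DPPA3 mRNA libraries were higher. The log2 fold change was 0.37 (SE 0.22; edgeR unadjusted p 0.11, adjusted p 0.9998). It was the 1 gene of the 30 with no overlap in this direction, a pattern seen in 4.91% of all genes. The opposite pattern was seen in 0 of the 30 and 3.99% of all genes. The next 4 by p were COL6A3, COL8A1, COL4A6 and COL18A1, with log2 fold changes of 0.53 (SE 0.37), 0.19 (SE 0.15), 0.16 (SE 0.16) and 0.20 (SE 0.25), and each overlapped between the groups. Without DPPA3 mRNA replicate 1 the log2 fold change of COL6A3 was 0.23.

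**Figure D2:**
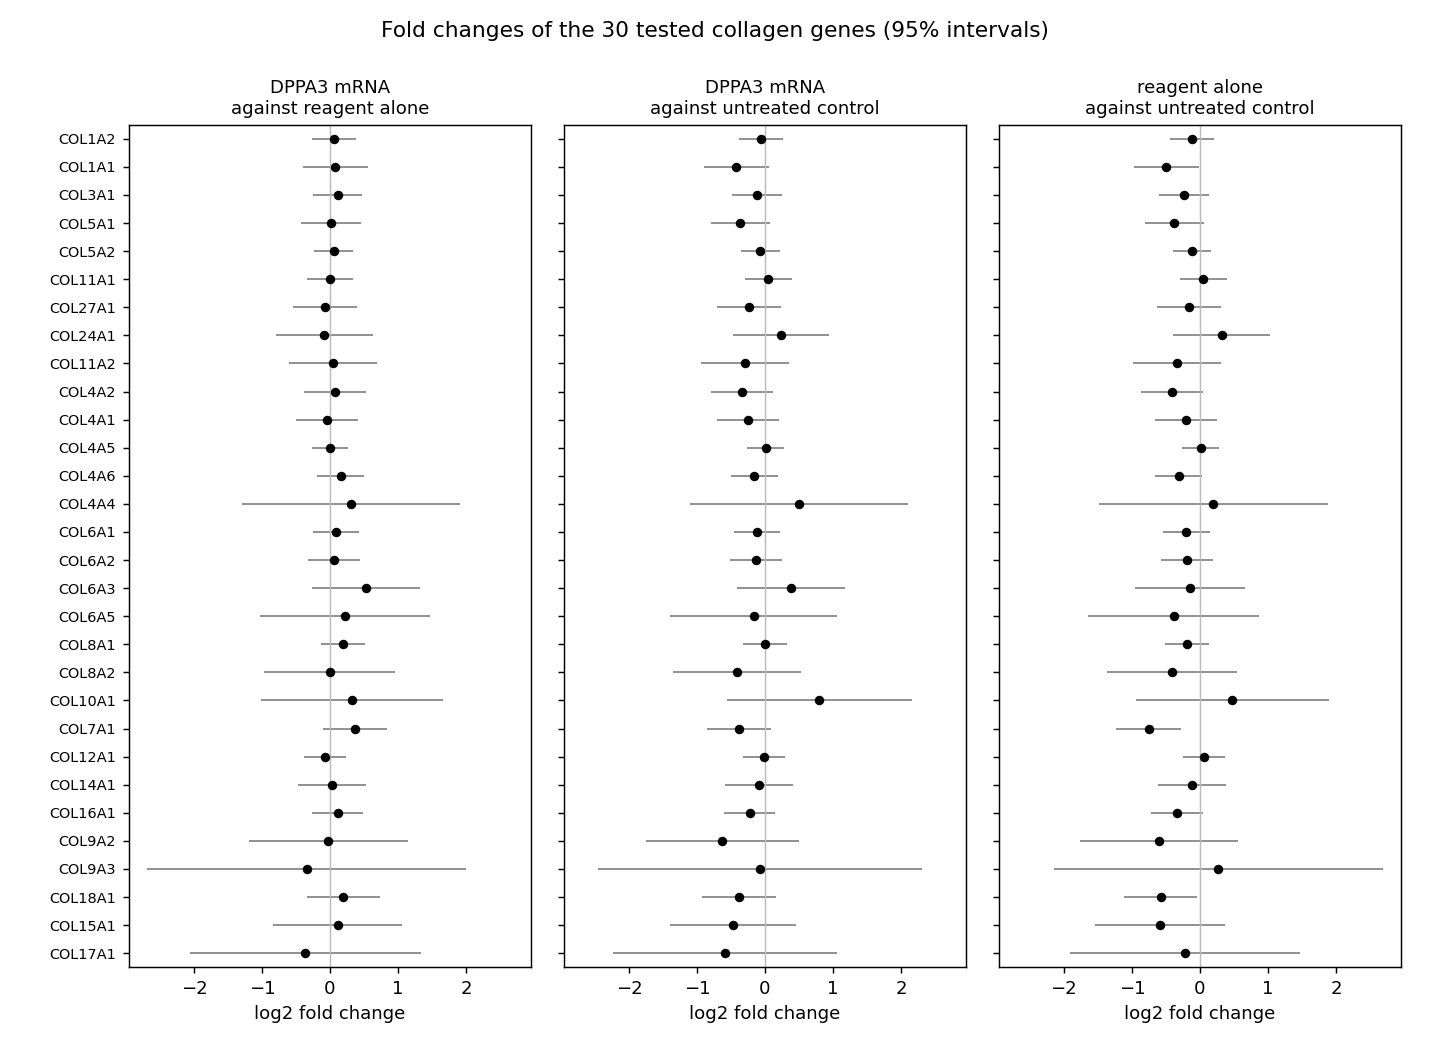
Log2 fold change (points) of the 30 tested collagen genes with 95% intervals (lines) in the 3 comparisons, from edgeR's quasi-likelihood fit on 3 libraries a group. All 30 intervals include 0 in both comparisons of DPPA3 mRNA, and the intervals of COL7A1, COL18A1 and COL1A1 lie below 0 for reagent alone against untreated control, where no gene passed after adjustment.

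Reagent alone was next set against untreated cells. Again 0 of 30 collagen genes were called by edgeR (0% of all genes), DESeq2 or limma voom. Of the 30, 23 were lower on average with reagent alone and 7 higher, against 50.8% lower over all genes, and the median log2 fold change was -0.20 (-0.0099 over all genes). An unadjusted edgeR p under 0.05 was found for 3 members, all lower, where 5.96% of all genes were lower at that p. They were COL7A1, COL18A1 and COL1A1. COL7A1 was at 31.7 ± 2.16 CPM against 53.6 ± 17.9 CPM (SD, n = 3), with a log2 fold change of -0.75 (SE 0.22, 95% interval -1.23 to -0.28; edgeR unadjusted p 0.00422, adjusted p 0.466). Its groups did not overlap, as for 7.21% of all genes in this direction and 6.92% in the other. COL18A1 had a log2 fold change of -0.58 (SE 0.25; edgeR adjusted p 0.466) and COL1A1 one of -0.50 (SE 0.22; adjusted p 0.466). COL4A6 (-0.31, SE 0.16) and COL16A1 (-0.34, SE 0.17) came next.

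These lower means rested largely on untreated control replicate 1. Without that library the median of the collagen genes was -0.014 and 16 of the 30 were lower. The log2 fold change of COL1A1 became -0.12, that of COL18A1 -0.14, that of COL16A1 -0.12 and that of COL4A6 -0.15. COL7A1 stayed lower at -0.45 (edgeR unadjusted p 0.0172, adjusted p 0.929), and COL6A5 then had a log2 fold change of -0.85 (unadjusted p 0.0426, adjusted p 0.929). The adjusted p of COL7A1 ranged from 0.0556, with limma voom, to 0.929 over all alternatives, and 0.0599 was its value in edgeR without untreated control replicate 2. In that setting 7 collagen genes had an unadjusted p under 0.05, all lower, against 27.1% of all genes in either direction. Without untreated control replicate 3 the number was also 7 (7.84% of all genes). It was 5 without reagent alone replicate 2 (5.31%) and 2 without untreated control replicate 1 (3.95%). Without reagent alone replicate 1 or 3 it was 1 (6.23% and 7.52%).

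DPPA3 mRNA against untreated control measured reagent and mRNA together, and it shares its control libraries with the comparison above, as the first comparison shares the reagent alone libraries with it. By edgeR 0 of 30 collagen genes were called (2 of all genes tested, or 0.0134%), and 0 by DESeq2 and limma voom. No member had an unadjusted edgeR p under 0.05 (3.91% of all genes), and in 0 of 30 did the groups not overlap, against 4.24% of all genes higher and 3.86% lower. The median log2 fold change was -0.15 (0.0017 over all genes), with 24 lower on average and 6 higher, and 49.8% of all genes lower. COL1A1 had the smallest p. Its level was 9805 ± 1345 CPM, and 13115 ± 5031 CPM in the controls (SD, n = 3), and its log2 fold change was -0.42 (SE 0.22; edgeR unadjusted p 0.080, adjusted p 0.852). COL5A1 (-0.36, SE 0.20), COL7A1 (-0.38, SE 0.22), COL4A2 (-0.33, SE 0.21) and COL18A1 (-0.38, SE 0.25) followed. COL1A2 had a log2 fold change of -0.05 (95% interval -0.38 to 0.27) and COL3A1 one of -0.12 (-0.48 to 0.25).

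Here too the values moved with 1 library. Without untreated control replicate 1 the median was 0.027 and 13 of the 30 genes were lower on average. COL1A1 was then at -0.053, COL5A1 at -0.060, COL7A1 at -0.087, COL4A2 at -0.057 and COL18A1 at 0.057 on the log2 scale. Without untreated control replicate 2, 4 collagen genes had an unadjusted edgeR p under 0.05, all lower, where 18.7% of all genes had one in either direction. Without untreated control replicate 3 the number was 2 (3.55% of all genes).

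Equal replicate numbers of these groups deviated together, so the comparison was also fitted with a block for replicate. That fit gave 0 called collagen genes and 1 with an unadjusted edgeR p under 0.05, where 9.35% of all genes had one. That gene was COL1A1, with a log2 fold change of -0.39 (edgeR unadjusted p 0.0304, adjusted p 0.524). COL1A1, COL5A1, COL18A1, COL5A2, COL16A1 and COL8A2, 6 of the 30, were lower with DPPA3 mRNA in all 3 pairs, as were 17.4% of all genes. COL11A1 and COL24A1, 2 of the 30, were higher in all 3 pairs, as were 19.3% of all genes. These genes were named for this pattern after their values were seen.

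Untreated control replicate 1 was the highest of the 9 libraries for 18 of the 30 tested collagen genes, or 60%, where it was the highest for 28.8% of all genes tested. It was also the lowest library for 31.8% of all genes, so its values lay toward both ends, and for 3 collagen genes. Reagent alone replicate 1, the library with the fewest counts, was the lowest for 11 of the 30 and for 15.5% of all genes. The excess in untreated control replicate 1 was not shared by all chains. COL1A2, COL12A1, COL11A1 and COL4A5 lay close to their means there, COL24A1 and COL6A5 lay below, and COL1A1, COL5A1, COL4A2, COL18A1 and COL7A1 lay above. What set this library apart was not tested.

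**Figure D3:**
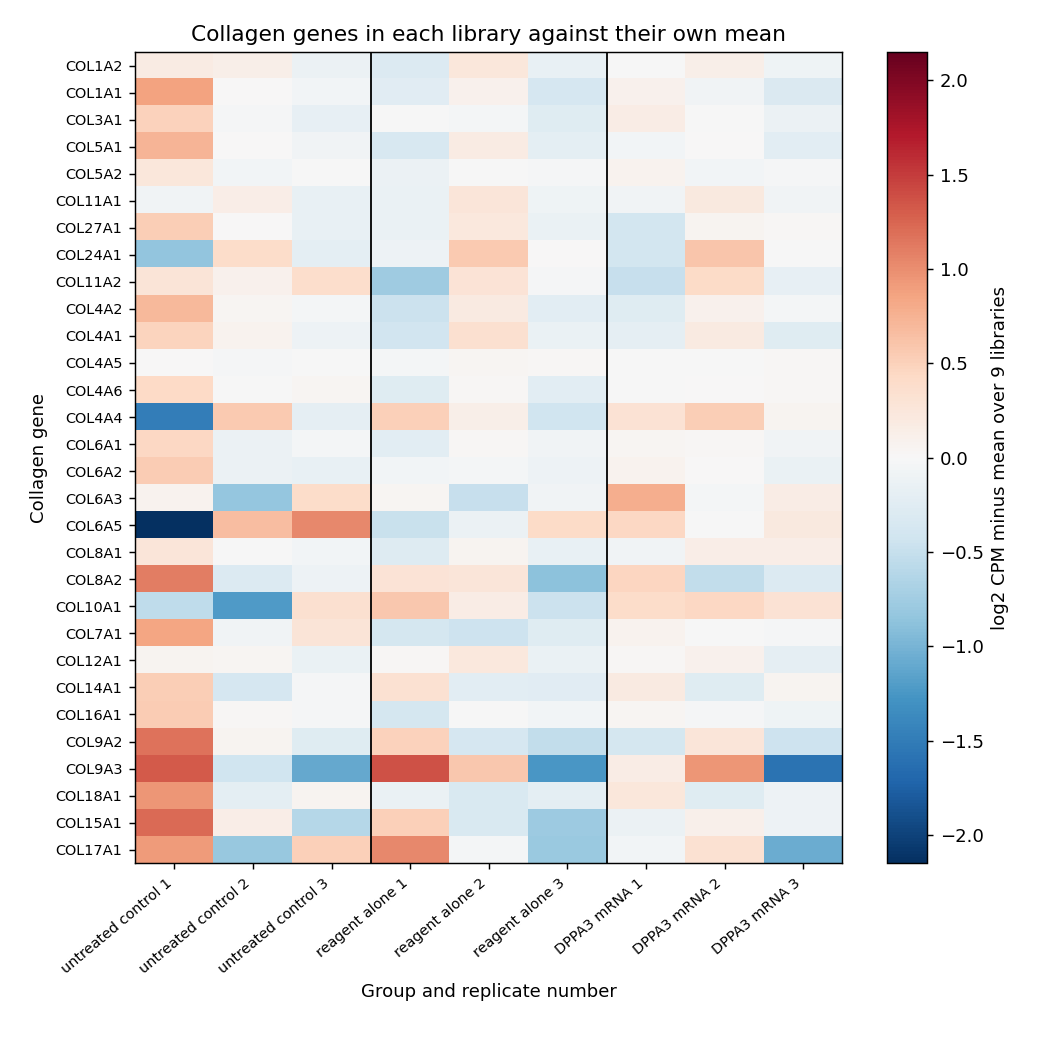
Log2 CPM (prior count 2) of each tested collagen gene minus its mean over the 9 libraries, by library and group, red above and blue below the mean. The column of untreated control replicate 1 is the highest of the 9 for 18 of the 30 genes, and that of reagent alone replicate 1 is the lowest for 11.

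Ratios between chains within a library do not depend on the scaling of libraries. The type I molecule normally holds more alpha 1 than alpha 2 chains. The ratio of COL1A1 to COL1A2 counts, which is not per length, was 1.23, 0.710 and 0.80 in untreated control replicates 1 to 3, 0.793, 0.689 and 0.664 with reagent alone and 0.825, 0.665 and 0.664 with DPPA3 mRNA. The group means were 0.914 ± 0.279, 0.716 ± 0.069 and 0.718 ± 0.093 (SD, n = 3), and the groups overlapped. Only untreated control replicate 1 held more COL1A1 than COL1A2 counts. The ratio of COL3A1 to COL1A2 was 0.666, 0.486 and 0.514 in untreated control, 0.648, 0.441 and 0.495 with reagent alone and 0.602, 0.483 and 0.521 with DPPA3 mRNA. In each group the highest of these ratios was in replicate 1, and the group means were 0.555, 0.528 and 0.536.

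COL4A1 and COL4A2 are next to each other in RefSeq's genes (ARS-UCD2.0 assembly), and are known to be transcribed in opposite directions from a shared promoter region. Their counts stayed close to each other, with a ratio of 0.78, 0.926 and 0.869 in untreated control, 0.935, 1.009 and 0.95 with reagent alone and 0.95, 0.969 and 0.778 with DPPA3 mRNA. The reagent alone ratios lay above those of untreated control, by a narrow gap, and overlapped those of DPPA3 mRNA. COL4A5 and COL4A6, also neighbours there, had a ratio of 2.65, 3.50 and 3.40 in untreated control, 4.11, 3.56 and 4.18 with reagent alone and 3.52, 3.48 and 3.56 with DPPA3 mRNA. All reagent alone ratios of this pair lay above all untreated control ratios, again by a narrow gap (lowest 3.560 against highest 3.501). The DPPA3 mRNA ratios lay between 3.48 and 3.56, the highest of them, 3.555, just under the lowest with reagent alone. These ratios were described after their values were seen, and they were not tested. COL6A1 and COL6A2, neighbours as well, had ratios of 1.41 to 1.72 in all libraries. The ratio of COL5A1 to COL5A2 ranged from 3.50 to 5.72, with the highest value in untreated control replicate 1.

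**Figure D4:**
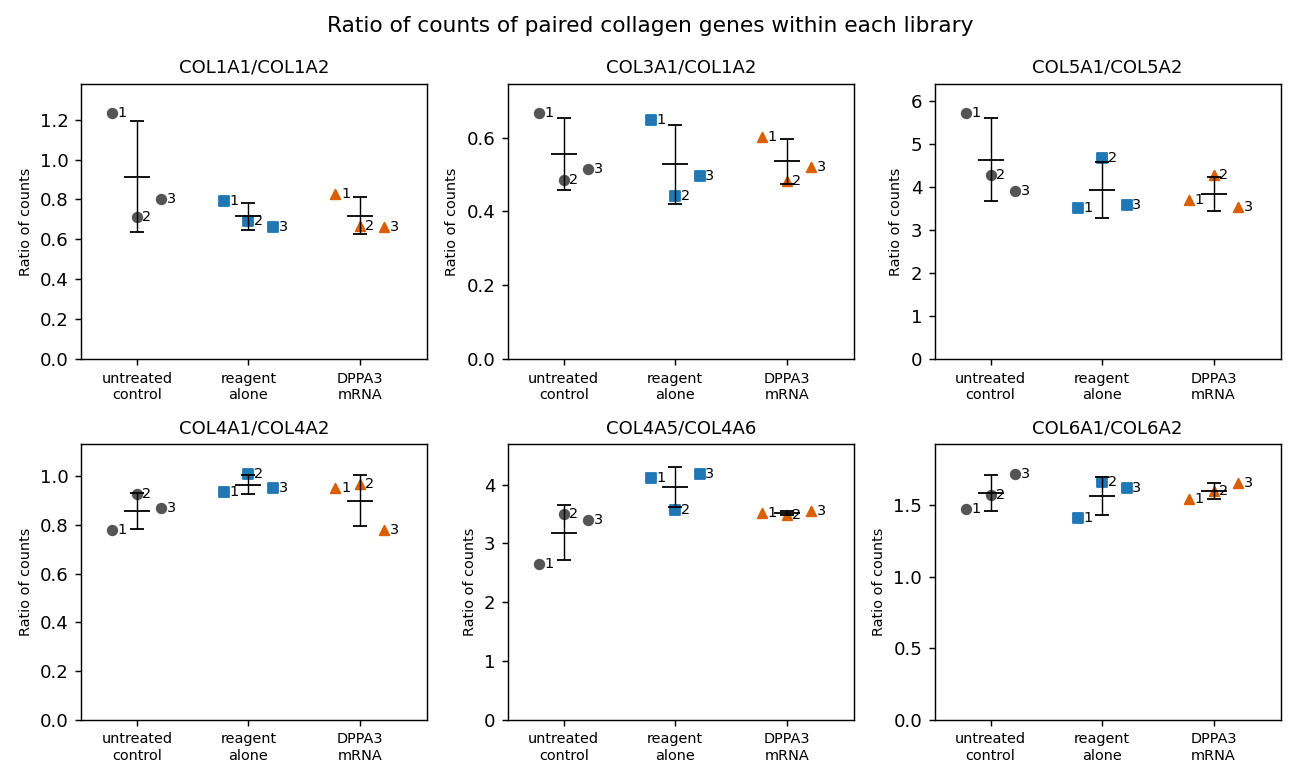
Ratio of the counts of paired collagen genes within each library (vertical axes from 0), by group, with points numbered by replicate and black bars showing the mean and SD of 3 libraries. The COL1A1 to COL1A2 ratio is 1.23 in untreated control replicate 1 and between 0.664 and 0.825 in the other 8 libraries. The COL4A5 to COL4A6 ratio is 3.56 to 4.18 with reagent alone, 3.48 to 3.56 with DPPA3 mRNA and 2.65 to 3.50 in untreated control.

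Some collagen genes were highest in the same replicate number of every group. The same number was the highest in all 3 groups for 6 of the 30 genes, or 20%, and for 26% of all genes tested. COL3A1, COL14A1, COL18A1 and COL8A2 were highest in replicate 1 of each group, and COL11A1 and COL24A1 in replicate 2. COL24A1, a minor fibrillar collagen, measured 27.7, 31.2 and 31.6 CPM in replicate 2 of untreated control, reagent alone and DPPA3 mRNA, against 11.6, 19.4 and 15.9 CPM in replicate 1. These spreads within a group were wider than the differences between its group means of 19.2, 23.9 and 22.7 CPM. COL11A1, COL14A1 and COL24A1 were named here after their values were seen.

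The genes that modify, fold, export, process and receive collagen were examined from lists drawn up with the collagens, and 0 of their tested members were called in any comparison by edgeR. At an unadjusted edgeR p under 0.05 there were 0 such genes for DPPA3 mRNA against reagent alone (1.67% of all genes). For DPPA3 mRNA against control there was 1 of 12 hydroxylation and glycosylation genes, 1 of 10 processing genes and 1 of 15 fibril partners. For reagent alone against control there was 1 of 12 hydroxylation and glycosylation genes, 1 of 15 fibril partners and 1 of 7 receptors. Of the 10 processing genes 1 was then higher and 1 lower. The rest of the 5 lists held 0. In either direction, 3.91% (DPPA3 mRNA against control) and 10.2% (reagent alone against control) of all genes had such a p. One of the listed genes was P3H4, a partner of the prolyl 3-hydroxylases. It was lower with DPPA3 mRNA than in the controls (log2 fold change -0.40, SE 0.17, edgeR adjusted p 0.852). Its log2 fold change was -0.25 without untreated control replicate 1. The prolyl and lysyl hydroxylases and glycosyltransferases had 12 tested genes of 14 listed, with median log2 fold changes of -0.07 (DPPA3 mRNA against reagent alone), -0.06 (DPPA3 mRNA against control) and -0.07 (reagent alone against control). PLOD2, the lysyl hydroxylase of the collagen telopeptides, was at 91.6 ± 13.5 CPM with reagent alone, 54.4 ± 21.8 CPM in untreated control and 69.5 ± 18.7 CPM with DPPA3 mRNA (SD, n = 3). COLGALT1, which glycosylates hydroxylysine, was at 166 ± 17.9, 208 ± 44.2 and 169 ± 6.38 CPM in the same order. Neither passed the threshold, with edgeR adjusted p of at least 0.466 in all 3 comparisons. Between DPPA3 mRNA and control, 2 of the 12, P3H4 and COLGALT1, were lower without overlap (3.86% of all genes), and 1 was higher (4.24%).

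The 12 folding and export genes were all tested, and their medians in the same order of comparisons were -0.014, 0.0045 and 0.22. SERPINH1, the collagen chaperone HSP47, was at 863 ± 131 CPM in untreated control, 743 ± 53.1 CPM with reagent alone and 781 ± 79.2 CPM with DPPA3 mRNA (SD, n = 3). FKBP14, a prolyl isomerase of the endoplasmic reticulum, averaged 26.1 ± 7.77 CPM in DPPA3 mRNA libraries and 41.0 ± 6.29 CPM in reagent alone libraries (log2 fold change -0.66), with no overlap. In untreated control it averaged 19.9 ± 17.2 CPM. Of the 12, 2 were lower with DPPA3 mRNA than with reagent alone without overlap, as were 3.99% of all genes. Of the 13 propeptide processing and crosslinking genes 10 were tested, with medians of -0.07, -0.09 and -0.20. ADAMTS3, a procollagen N-proteinase, was at 27.8 ± 4.33 CPM in untreated control, 43.8 ± 10.2 CPM with reagent alone and 35.6 ± 1.35 CPM with DPPA3 mRNA. Both reagent groups lay above untreated control without overlap, and neither difference was called (edgeR adjusted p 0.466 and 0.852). ADAMTS3 was the 1 gene of the 10 with that pattern in each comparison, against 6.92% and 4.24% of all genes. With reagent alone 1 other gene was lower than control without overlap (7.21% of all genes). LOXL1, a crosslinking enzyme of elastic and collagen fibres, was at 441 ± 106, 320 ± 53.6 and 341 ± 30.8 CPM in untreated control, reagent alone and DPPA3 mRNA.

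Of 17 fibril partners and organisers 15 were tested, with medians of 0.03, 0.03 and -0.03 in the same order of comparisons. In each comparison 1 of the 15 was higher without overlap and 0 lower, against 4.91%, 4.24% and 6.92% of all genes higher. EMILIN1, a glycoprotein of elastic fibres, was at 433 ± 139, 317 ± 28.2 and 346 ± 37.8 CPM in untreated control, reagent alone and DPPA3 mRNA, and LUM, a small proteoglycan on collagen fibrils, at 31.6 ± 15.0, 49.6 ± 12.0 and 41.9 ± 10.9 CPM (SD, n = 3). Of 10 collagen receptors 7 were tested, with medians of -0.16, -0.14 and 0.18. ITGB1, the beta 1 subunit shared by the collagen-binding integrins, was at 366 ± 73.2 CPM in untreated control, 482 ± 19.1 CPM with reagent alone and 419 ± 39.4 CPM with DPPA3 mRNA. Its reagent alone libraries lay above untreated control without overlap (log2 fold change 0.40, edgeR adjusted p 0.466). ITGB1 was the 1 receptor of the 7 with that pattern, which was seen in 6.92% of all genes. MRC2, an endocytic receptor that takes up collagen for breakdown, was at 578 ± 210 CPM, 423 ± 30.6 CPM and 458 ± 80.7 CPM in untreated control, reagent alone and DPPA3 mRNA. None of these differences passed the threshold after adjustment over all genes.

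Several of these differences from untreated control were smaller without its replicate 1. For reagent alone against control, the list medians were then 0.012 for hydroxylation and glycosylation, 0.15 for folding and export, 0.087 for processing and crosslinking, 0.044 for fibril partners and 0.088 for receptors. For DPPA3 mRNA against control they were -0.088, -0.012, 0.039, 0.056 and -0.025 in the same order of lists. No gene of the 5 lists was called by edgeR in that setting. At an unadjusted edgeR p under 0.05 there were 2 for reagent alone, PLOD2 (of 12 tested in its list) and ADAMTS3 (of 10), both higher. For DPPA3 mRNA there was 1, the fibril partner PRELP (of 15), which was lower and is named after its value was seen. Of all genes, 3.95% (reagent alone) and 2.46% (DPPA3 mRNA) had such a p in either direction in that setting. For reagent alone the log2 fold change of PLOD2 was then 0.54 instead of 0.75, that of ADAMTS3 0.54 instead of 0.65 and that of ITGB1 0.29 instead of 0.40. LOXL1 moved from -0.46 to -0.25, EMILIN1 from -0.45 to -0.15, COLGALT1 from -0.32 to -0.13 and MRC2 from -0.45 to -0.11.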

How the data were processed

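The authors deposited raw read counts per gene symbol for 9 libraries. Per the labels' protocols, libraries came from TRIzol-extracted, DNase-treated RNA (IDT xGen kit). Trimmomatic, HISAT2, HTSeq and edgeR are named in the submitters' processing notes. Their roles, the build, the annotation and the strand setting were not given in the sources used here. Without the strand setting, reads of a gene and of one overlapping it or antisense to it may be mixed.

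The filter filterByExpr kept 14874 genes, and TMM gave the scaling. One fit held all 9 libraries, by group, in edgeR 4.0.16 (glmQLFit, glmQLFTest, two-sided) in R 4.3.3, with Benjamini-Hochberg adjustment over all genes tested and a threshold of 0.05. CPM use the TMM-scaled library sizes. Each SE is the size of the log2 value over the root of its F statistic. The members and lists were chosen with earlier results of these data known. Genes given by library are the 10 members with the highest mean CPM, in place of a planned order per coding length that was not made, the 5 with the smallest p in each comparison, and the chains of types I, IV (alpha 1 and 2), V, VI and VIII. From each related list up to 3 genes with the smallest p per comparison could be named. SERPINH1 lies outside this rule.

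Deviations from group means correlated between equal replicate numbers of DPPA3 mRNA and untreated control at 0.34, 0.32 and 0.12, all over 0.1. Equal numbers were therefore read as pairs in that comparison, a reading that comes from the data, not the labels. The main fit held no block, so p-values, SE and intervals of that comparison are unpaired except where the block is named. Replicates differed by more than sampling noise (chi-square per degree of freedom at least 13.4). Alternatives were DESeq2 size factors, the DESeq2 1.42.0 Wald test, no filter, only the groups compared, a replicate block, each library left out, and, added after the data were seen, limma 3.58.1 voom with quality weights. The scripts were tested on simulated data.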

Additional observations from a re-analysis of the deposited data

How the results depend on the processing

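The count of collagen genes called stayed at 0 in all 3 comparisons under every alternative run. With the replicate number as a replicate block it was 0 in each comparison, and the block changed no call, though for DPPA3 mRNA against untreated control the number of collagen genes with an unadjusted edgeR p under 0.05 went from 0 to 1. The median log2 fold change of the collagen genes ranged from 0.015 to 0.16 for DPPA3 mRNA against reagent alone, from -0.26 to 0.027 for DPPA3 mRNA against untreated control and from -0.30 to -0.014 for reagent alone against untreated control when single libraries were left out. Of 264 values of named genes under alternatives, 252 kept their direction and 12 changed sign. None passed the threshold in any setting, so this count rests on direction alone. Values that kept their direction could still differ in size, as several did without untreated control replicate 1. The cause of the sign changes was not tested. For DPPA3 mRNA against reagent alone, leaving out single libraries gave log2 fold changes of -0.028 to 0.22 for COL1A1 and -0.045 to 0.23 for COL1A2, and voom gave -0.0098 for COL1A1. For DPPA3 mRNA against untreated control the ranges were -0.60 to 0.057 for COL18A1, -0.14 to 0.013 for COL1A2 and -0.25 to 0.11 for COL3A1, and voom gave 0.050 for COL1A2 and 0.075 for COL3A1. For reagent alone against untreated control COL3A1 ranged from -0.36 to 0.0034, and voom gave 0.012 for COL3A1 and 0.027 for COL1A2. Deviations of equal replicate numbers correlated at 0.14, 0.12 and 0.086 (DPPA3 mRNA, reagent alone) and at 0.15, 0.14 and 0.093 (reagent alone, control), so in each of these one value missed 0.1 and the numbers were not taken as pairs. The order of levels per coding length was not run. Depth limits statements on genes near the floor, and most in reagent alone replicate 1.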
